A study of Homo sapiens with 4 samples.

Results

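The genes described here encode the machinery that copies DNA and then divides the cell, 43 genes in all, chosen by name from cell cycle knowledge and read from every probe annotated with their symbols. They were measured by 62 of the 48803 probes on each Illumina bead array, and they are 43 of the 18665 genes with a named probe. Messenger RNA was measured in 4 cultures of colon adenocarcinoma cells, with 1 array each. Of these, 3 were of LvM3b, known from published work as a liver-metastatic derivative: a control with no transgene named, cells over-expressing miR-483 (written miR-483-5p in the title of the series), and cells over-expressing miR-551a. Ls-Parental, the fourth, is a parental line by its title and source name, whereas LvM3b stands in its cell line entry. All 4 were cultured in medium with 10% serum and taken at about 70% confluency. The labels do not say how the microRNAs were expressed or whether the cultures were clones, and mature microRNAs were not measured.

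Replication begins when the origin recognition complex, CDC6 and CDT1 load the ring-shaped MCM helicase onto DNA in G1 phase. Cyclin D with CDK4 or CDK6 and cyclin E with CDK2 then release E2F factors from the retinoblastoma protein, and E2F switches on genes of DNA synthesis. Genes of mitosis are induced later, largely through a promoter element called CHR and nearby CCAAT boxes that bind NF-Y. In colon cancer cell lines most cells are cycling, so these messages are usually abundant. Cultures were measured in bulk, so fewer cells in a phase and less RNA per cell cannot be told apart.

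Many promoter sequences of these genes carry the letters of those elements, in shares that differed between role groups. RefSeq promoters of GRCh38.p14, each running from 250 bases before the start of a gene to 50 after it, were matched for 35 of the 43 genes. The E2F letters searched were TTTCCCGC, TTTCGCGC, TTTGCCGC and TTTGGCGC, the CHR letters TTTGAA and TTCGAA, and the CCAAT box CCAAT, all on both strands. E2F letters were found in 16 of the 35 promoters (45.7%), against 3.33% of 27305 promoters of all genes. All 8 promoters of licensing and helicase genes held them, as did 4 of the 5 for polymerase, clamp and loader genes, and 0 of the 4 for spindle checkpoint and mitotic kinases. CHR letters were found in 10 of the 35 (28.6%, against 16.6% of all promoters), including 3 of the 4 checkpoint and kinase promoters, and both those of TOP2A and MKI67. Other groups were mixed. CHR letters were in 3 of the 7 promoters of S to mitosis cyclins, CDK1 and CDC25. E2F letters were in 2 of the 6 promoters of G1 cyclins, kinases and E2F1. CCAAT letters were in 22 (62.9%, against 35.7%). A match is a description of the sequence, not evidence of binding.

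**Figure D1:**
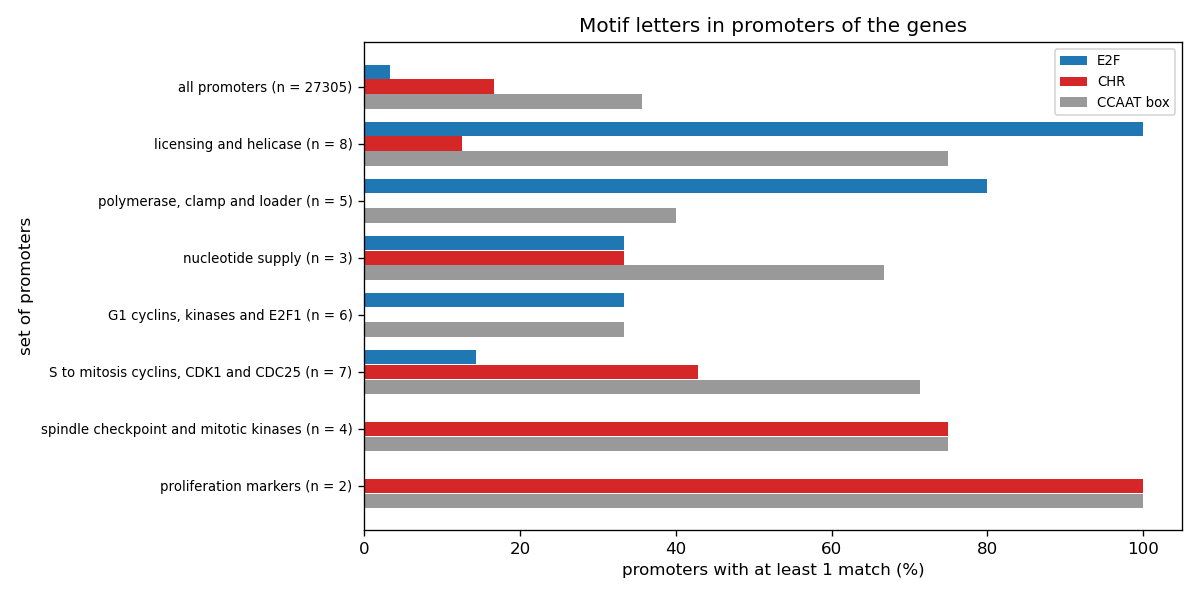
Share of promoters, in percent, with at least 1 match to the E2F, CHR or CCAAT letters, for all 27305 promoters and for each role group, with the number of promoters in parentheses. E2F letters lie mostly in the replication groups and CHR letters mostly in the mitotic groups.

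The promoters printed are those of the 3 genes furthest above control and the 1 furthest below it on the miR-551a array, among genes detected on both (CDC25A, BUB1B, CDC20 and CCNB2), and MCM6, which held the most E2F matches. They are given 5′ to 3′ on the strand of the gene, with E2F, CHR and CCAAT letters, on either strand, in capitals. In MCM6 the 4 E2F matches overlap in pairs, since the letters on one strand run into those on the other.
CDC25A, chr3:48188368-48188667, minus strand: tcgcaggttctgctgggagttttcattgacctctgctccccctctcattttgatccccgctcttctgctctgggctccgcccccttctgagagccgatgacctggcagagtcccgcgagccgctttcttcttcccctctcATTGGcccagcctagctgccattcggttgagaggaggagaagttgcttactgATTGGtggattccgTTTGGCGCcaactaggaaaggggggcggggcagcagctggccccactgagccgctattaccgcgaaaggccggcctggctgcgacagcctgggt
BUB1B, chr15:40160819-40161118, plus strand: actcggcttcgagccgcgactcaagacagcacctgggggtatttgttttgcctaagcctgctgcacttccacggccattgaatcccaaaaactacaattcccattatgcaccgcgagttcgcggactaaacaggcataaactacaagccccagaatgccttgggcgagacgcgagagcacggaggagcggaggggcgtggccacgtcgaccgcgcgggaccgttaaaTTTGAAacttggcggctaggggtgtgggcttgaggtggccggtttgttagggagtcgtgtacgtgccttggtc
CDC20, chr1:43358731-43359030, plus strand: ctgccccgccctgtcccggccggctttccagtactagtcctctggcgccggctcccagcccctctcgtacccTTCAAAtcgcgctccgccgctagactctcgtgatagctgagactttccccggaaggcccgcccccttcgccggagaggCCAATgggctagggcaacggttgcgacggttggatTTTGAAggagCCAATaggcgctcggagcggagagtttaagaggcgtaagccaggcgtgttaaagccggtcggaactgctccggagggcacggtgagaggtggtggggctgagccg
CCNB2, chr15:59104896-59105195, plus strand: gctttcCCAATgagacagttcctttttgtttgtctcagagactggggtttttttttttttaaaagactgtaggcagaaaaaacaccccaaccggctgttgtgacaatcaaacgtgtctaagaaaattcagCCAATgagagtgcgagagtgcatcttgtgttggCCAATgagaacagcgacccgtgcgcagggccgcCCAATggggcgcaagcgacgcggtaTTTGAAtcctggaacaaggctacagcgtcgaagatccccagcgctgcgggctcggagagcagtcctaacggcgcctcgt
MCM6, chr2:135876394-135876693, minus strand: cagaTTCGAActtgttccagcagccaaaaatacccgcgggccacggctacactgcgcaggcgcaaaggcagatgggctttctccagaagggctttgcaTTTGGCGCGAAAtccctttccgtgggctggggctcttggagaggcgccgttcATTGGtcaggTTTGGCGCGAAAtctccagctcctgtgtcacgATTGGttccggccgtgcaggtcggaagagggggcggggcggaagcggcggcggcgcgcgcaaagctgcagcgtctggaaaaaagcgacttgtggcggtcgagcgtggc
CDC25A holds 1 E2F match and 2 CCAAT boxes, CDC20 holds 2 CHR matches and 2 CCAAT boxes, and CCNB2 holds 1 CHR match and 4 CCAAT boxes. CDC20 and CCNB2 thus carry the same kinds of letters, and their log2 differences between the miR-551a and control arrays have opposite signs (0.55 and -0.21). Of the introduced microRNAs, the mature miR-551a is printed with its seed, bases 2 to 8, in capitals (RefSeq, GRCh38.p14, chr1:3560710-3560730, minus strand), since the seed sets which messages it can pair with. The microRNA miR-483-5p is named only.
hsa-miR-551a: gCGACCCAcucuugguuucca

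Each gene was read from its brightest probe, as a log2 level after background correction and normalization of the 4 arrays together. A gene was counted as detected where its detection p was under 0.01. With 1 array per group there is no replicate error and no test, so every difference compares 2 arrays. Counts of genes past 1.2-fold or 2-fold are set beside the share of all genes past the same fold. On the LvM3b control array 13861 probes were detected, against 14447 to 14628 on the others. Its lowest detected signal was 178.2, against 146.5 to 159.8. Whether this bears on differences from the control was not tested. Pearson's r over all probes was 0.993 to 0.994 between LvM3b arrays and 0.985 to 0.986 between these and Ls-Parental. Of 11 markers of colon epithelium, 10 were detected on all 4 arrays, while KRT20 was detected on Ls-Parental alone.

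Of the 43 genes, 40 were detected on all 4 arrays and 2, CCNE2 and E2F1, on none. CCNE2 encodes cyclin E2 and E2F1 the founding E2F factor. Both probes stayed at log2 levels of 4.68 to 5.17, below the lowest detected level of any array (6.13), so no difference is given for them. GINS1, a subunit of the helicase complex, was detected on the control array alone, at a detection p of 0.00791 against 0.0132 to 0.0264 elsewhere. Its log2 levels were 6.49 on the LvM3b control array, 5.95 on the miR-483 array, 5.64 on the miR-551a array and 5.57 on the Ls-Parental array. The control was therefore at least 1.27-fold above miR-483, at least 1.23-fold above miR-551a and at least 1.28-fold above Ls-Parental, each fold set against the lowest detected level of the dimmer array. These bounds make no allowance for noise near background. In all that follows, 4 levels in a row are log2 levels in this order of arrays.

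**Figure D2:**
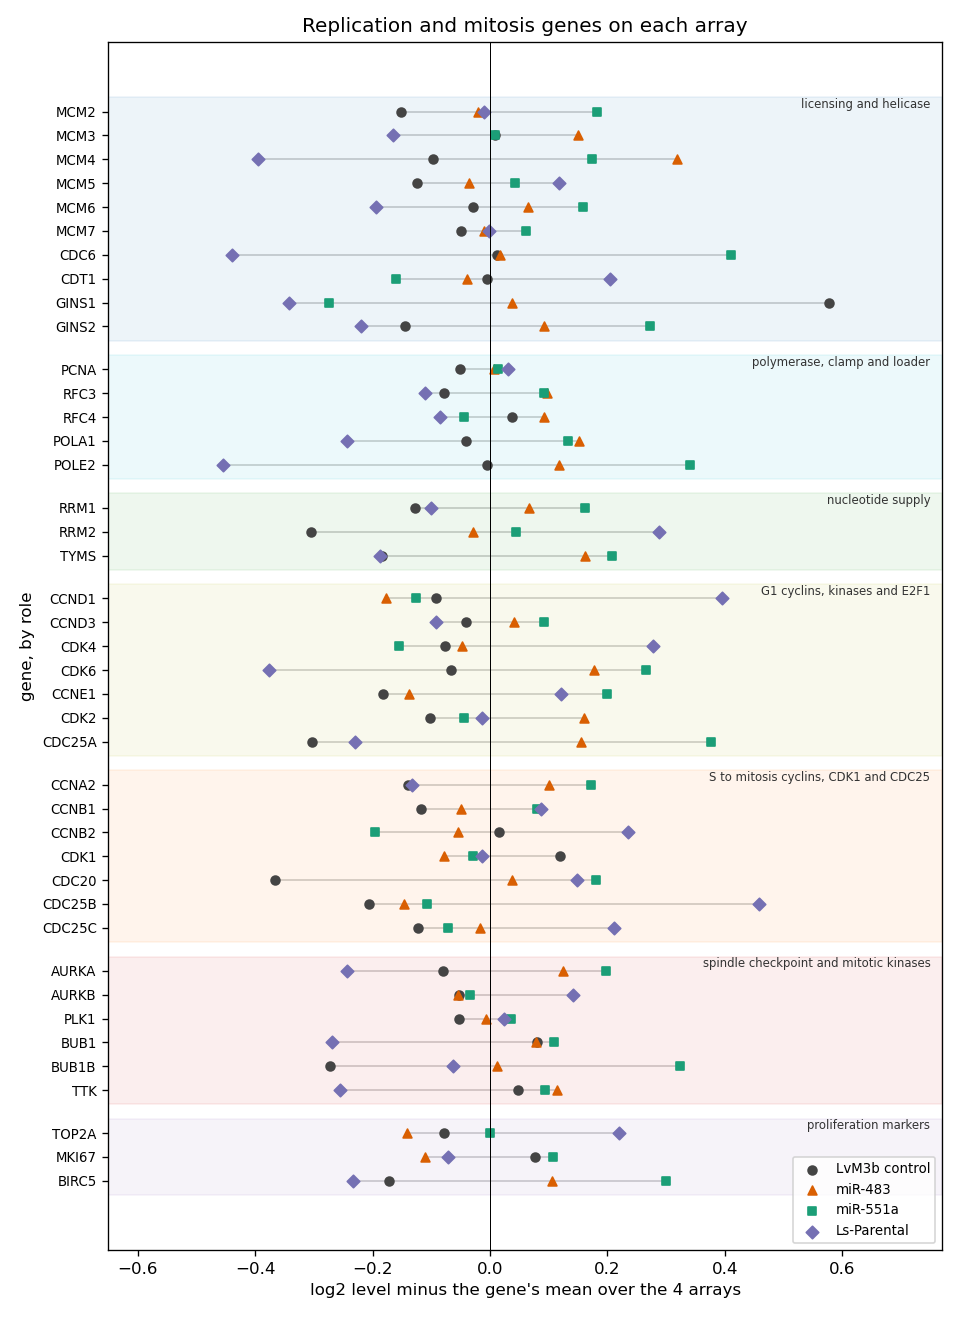
Log2 level of each detected gene on each array minus its mean over the 4 arrays, by role, with 1 point per array. The widest spans among the LvM3b arrays are those of GINS1 (0.85), CDC25A (0.68) and BUB1B (0.60), and Ls-Parental lies far from the LvM3b arrays for CCND1 and CDC25B.

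The first comparison asked what differed in these genes when LvM3b cells carried extra miR-483. Most were slightly higher on the miR-483 array, with 32 of 41 higher and 9 lower, where 51.5% of 9673 genes were higher and 48.4% lower. At 1.2-fold, 8 were higher and 1, GINS1, was lower, against 10.8% and 10.5% of all genes. The share of these genes past 1.2-fold higher was 19.5%. None reached 2-fold in either direction, and 0.641% of all genes did. The median log2 difference was 0.09, beside 0.01 over all genes.

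With miR-551a most of these genes were also higher. Of 41 genes, 33 were higher and 7 lower, where 51% of 9619 genes were higher and 48.8% lower. At 1.2-fold, 16 were higher (39%) and 1, again GINS1, was lower, against 13.3% and 12.4% of all genes. None reached 2-fold, which 0.582% of all genes did. The median was 0.17, beside 0.01 over all genes. Which microRNA gave the larger median turned on scaling, which also moved the medians of all genes. With arrays scaled to a common median, the median of these genes was 0.14 for miR-483 against 0.12 for miR-551a. The medians of all genes were then 0.056 and -0.033. Beside all genes, these genes lay further above with miR-551a under both scalings. Genes at least 1.2-fold higher then numbered 11 and 12. The shares of all genes are not given for that scaling, so these counts alone do not set the genes apart. Both comparisons used the same control array, so their values are not independent.

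The array of miR-483 cells can also be set against that of miR-551a cells, without the control. Here 29 of 40 genes were lower with miR-483 and 11 were higher, where 49.9% of 9753 genes were lower and 49.9% higher. Only 3 passed 1.2-fold lower (CDC6, CCNE1 and BUB1B) and 0 passed it higher, which is near or under the 8.97% and 9.22% of all genes. CDC6 lay close to the lowest detected levels, and a second detected probe of CCNE1 differed by only -0.01. The median was -0.06, beside 0.00 over all genes. None reached 2-fold, which 0.369% of all genes did. The median of these genes turned to 0.037 when arrays were scaled to a common median in place of quantile normalization, which moved the median of all genes to 0.09.

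**Figure D3:**
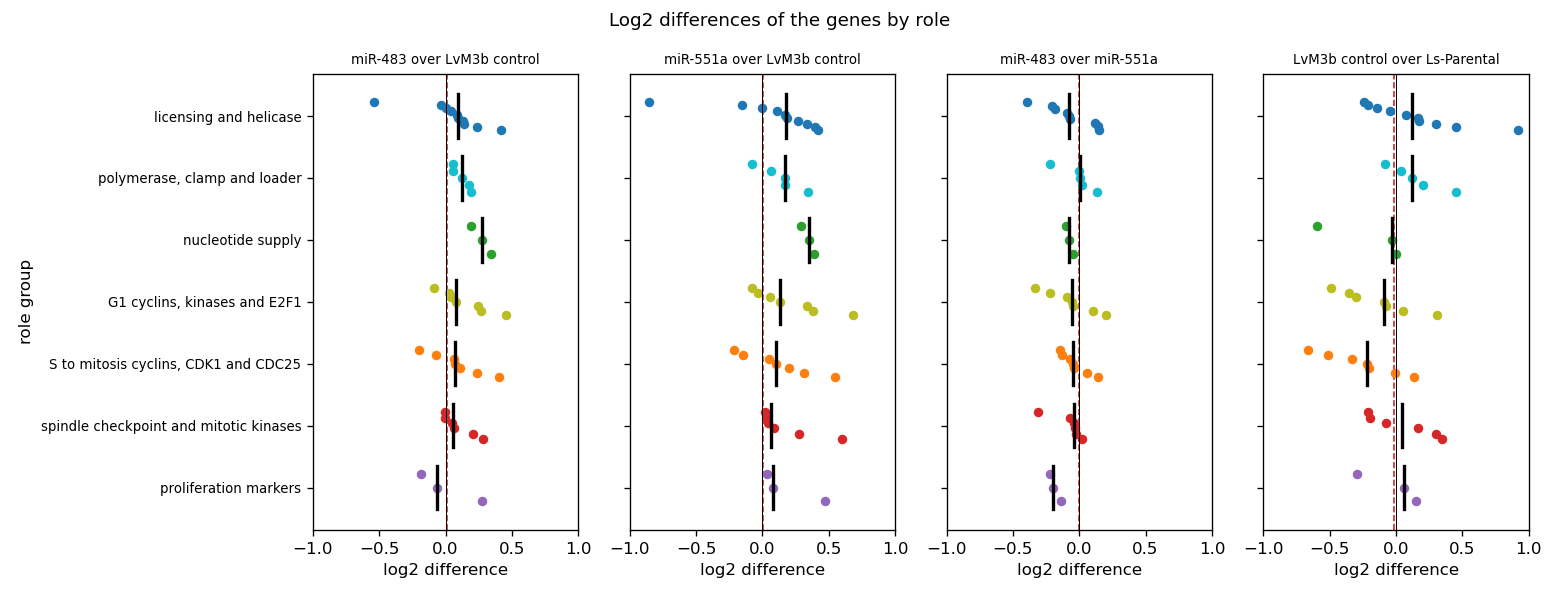
Log2 difference of each gene detected on at least 1 of the arrays compared, by role group, in 4 comparisons. Points are genes, black bars are group medians and the dashed line is the median of all genes; with both microRNAs the nucleotide supply genes lie furthest to the right (medians 0.28 and 0.35).

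The helicase and its loaders were higher for the most part, and by small amounts. In the licensing and helicase group 8 of 10 genes were higher with miR-483 (median 0.09) and 7 with miR-551a (median 0.18). MCM2 to MCM7 encode the 6 subunits of the helicase ring. MCM4 had the widest difference of them with miR-483, 1.33-fold, at levels of 11.24, 11.66, 11.51 and 10.95, so that the control lay below both microRNA arrays and Ls-Parental lay lowest. Its second probe differed by only 0.11 with miR-483. MCM2, at 10.62, 10.75, 10.96 and 10.76, was 1.26-fold higher with miR-551a. MCM3, at 14.08, 14.22, 14.08 and 13.90, did not differ between miR-551a and control (0.00). MCM5, MCM6 and MCM7 differed by 0.04 to 0.09 with miR-483 and by 0.11 to 0.19 with miR-551a. A dimmer MCM7 probe, detected on all 4 arrays, differed by 0.66 and 0.46.

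Of the loaders, CDC6 stood out on the miR-551a array, and CDT1 leaned the other way. CDC6 had levels of 6.65, 6.66, 7.05 and 6.20 and was 1.32-fold higher with miR-551a, while the control and miR-483 arrays were level. It lay close to the lowest detected levels, 6.13 to 6.38, only 1 probe reads it, and its difference with miR-551a was 0.23 without background correction and 0.21 with the authors' processed values, in place of 0.40. CDT1, at 9.66, 9.63, 9.51 and 9.87, was 1.11-fold lower with miR-551a. GINS2, a partner of GINS1 in the complex that activates the helicase, had levels of 11.64, 11.88, 12.06 and 11.56 and was 1.34-fold higher with miR-551a. GINS1 and GINS2 encode subunits of the same complex, and they lay on opposite sides of the control. GINS1 was near background, and GINS2 was not.

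Genes of the polymerases and the sliding clamp differed little. All 5 were higher with miR-483 (median 0.12) and 4 of 5 with miR-551a (median 0.17). POLE2, a subunit of the leading-strand polymerase, was the widest, at 9.91, 10.03, 10.25 and 9.46, and 1.27-fold higher with miR-551a. POLA1, catalytic subunit of the polymerase that starts each strand with primase, differed by 0.19 and 0.17. The clamp PCNA differed by 0.06 with each microRNA at its brightest probe. A dimmer PCNA probe differed by -0.56 with miR-551a and another by 0.36, and both lay at log2 levels below 8. With miR-483 the same probes differed by -1.04 and -0.11, the former not being detected on the miR-483 array. The clamp loader genes RFC3 and RFC4 differed by 0.17 and 0.05 with miR-483 and by 0.17 and -0.08 with miR-551a. For RFC4 the levels were 11.93, 11.99, 11.85 and 11.81, all within 0.18 of each other.

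Enzymes of nucleotide supply were the group with the highest medians, 0.28 with miR-483 and 0.35 with miR-551a, all 3 genes being higher in both. TYMS, thymidylate synthase, the target of fluorouracil, had levels of 12.47, 12.82, 12.86 and 12.47. It was 1.27-fold and 1.31-fold higher on the microRNA arrays, while the control and Ls-Parental were level. RRM1 and RRM2 encode the large and small subunits of ribonucleotide reductase, which makes deoxynucleotides. RRM1 had levels of 13.08, 13.27, 13.37 and 13.11 and was 1.22-fold higher with miR-551a. RRM2, at 9.54, 9.82, 9.89 and 10.13, was 1.21-fold higher with miR-483 and 1.27-fold higher with miR-551a, and Ls-Parental was higher still.

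Among G1 regulators the widest differences lay with CDC25A, the phosphatase that activates CDK2. Its levels were 9.17, 9.63, 9.85 and 9.24, which is 1.37-fold higher with miR-483 and 1.60-fold higher with miR-551a, the largest differences upward of the 43 genes in both comparisons. A dim second probe of CDC25A, not detected on the miR-483 array, had log2 levels of 6.41 on the control and 6.40 on the miR-551a array, and so did not show the difference. Its level on the miR-483 array was 5.98, below the control, and with the mean of both probes the difference of CDC25A with miR-483 was 0.017 in place of 0.46, and that with miR-551a 0.34 in place of 0.68. CCNE1, cyclin E1, had levels of 8.84, 8.88, 9.22 and 9.14 and was 1.30-fold higher with miR-551a. Its second detected probe was higher with both microRNAs, by 0.49 and 0.50. CDK6 had levels of 10.98, 11.23, 11.32 and 10.67 and was 1.26-fold higher with miR-551a. CDK2, at 10.86, 11.12, 10.92 and 10.95, was higher by 0.26 with miR-483, just past 1.2-fold, while its second probe was higher mainly with miR-551a (0.36). Cyclins D1 and D3 and CDK4, which act first in G1, differed little. CCND1 differed by -0.08 and -0.03, CCND3 by 0.08 and 0.13, and CDK4 by 0.03 and -0.08.

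From S phase into mitosis the genes divided. CDC20, which activates the anaphase-promoting complex, had levels of 11.42, 11.82, 11.97 and 11.93, so that the control alone was low. It was 1.32-fold higher with miR-483 and 1.46-fold higher with miR-551a. CCNA2, cyclin A2, was 1.24-fold higher with miR-551a, at 11.63, 11.87, 11.94 and 11.64. CCNB2, a partner of CDK1, went the other way, at 12.48, 12.41, 12.27 and 12.70, and was 1.16-fold lower with miR-551a, the lowest of the genes detected on both arrays. CCNB1, the other mitotic B cyclin here, was higher by 0.07 and 0.20. CDK1 itself had levels of 11.84, 11.64, 11.69 and 11.71 at its brightest probe, 1.15-fold below control with miR-483 and 1.11-fold below it with miR-551a. Its second probe was higher with miR-551a by 0.41, so the probes of CDK1 had opposite signs. CDC25B and CDC25C, phosphatases that activate CDK1, differed by 0.05 to 0.11 in these comparisons.

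In the checkpoint and kinase group BUB1B stood apart. BUB1B encodes BUBR1, which holds back anaphase until chromosomes are attached. Its levels were 8.71, 8.99, 9.31 and 8.92, 1.22-fold higher with miR-483 and 1.51-fold higher with miR-551a. AURKA, a kinase of the spindle poles, followed at 11.59, 11.80, 11.87 and 11.43, 1.21-fold higher with miR-551a, and its second probe was 0.35 higher there. BUB1, AURKB, PLK1 and TTK, kinases of the kinetochore, the chromosomal passenger complex and mitotic entry, differed by less than 0.1 in both comparisons. Of the proliferation markers, BIRC5, survivin, had levels of 10.33, 10.60, 10.80 and 10.27 and was 1.21-fold and 1.39-fold higher. Its dimmer probe was also higher, by 0.18 and 0.27. MKI67, which encodes the Ki-67 antigen used to grade tumours, had levels of 7.26, 7.08, 7.29 and 7.11. TOP2A, the topoisomerase that untangles sister chromosomes, had levels of 11.77, 11.71, 11.85 and 12.07. Their differences with miR-483 were -0.19 and -0.06, and they differed by under 0.1 with miR-551a.

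Probes of the same gene give the only internal check of such small differences. With miR-483, 12 genes had more than 1 probe detected on both arrays, and the signs matched in 8 of them, with a median range of 0.15 between probes of a gene. With miR-551a the signs matched in 7 of 13, with a median range of 0.17 and a widest of 0.92 for PCNA. The median differences of the 43 genes over control, for those compared, were 0.09 and 0.17, so the ranges between probes were of about that size or wider. For MCM4, MCM7, RFC3, CCNE1, CDK2, AURKA and BIRC5 all detected probes were higher in both comparisons.

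**Figure D4:**
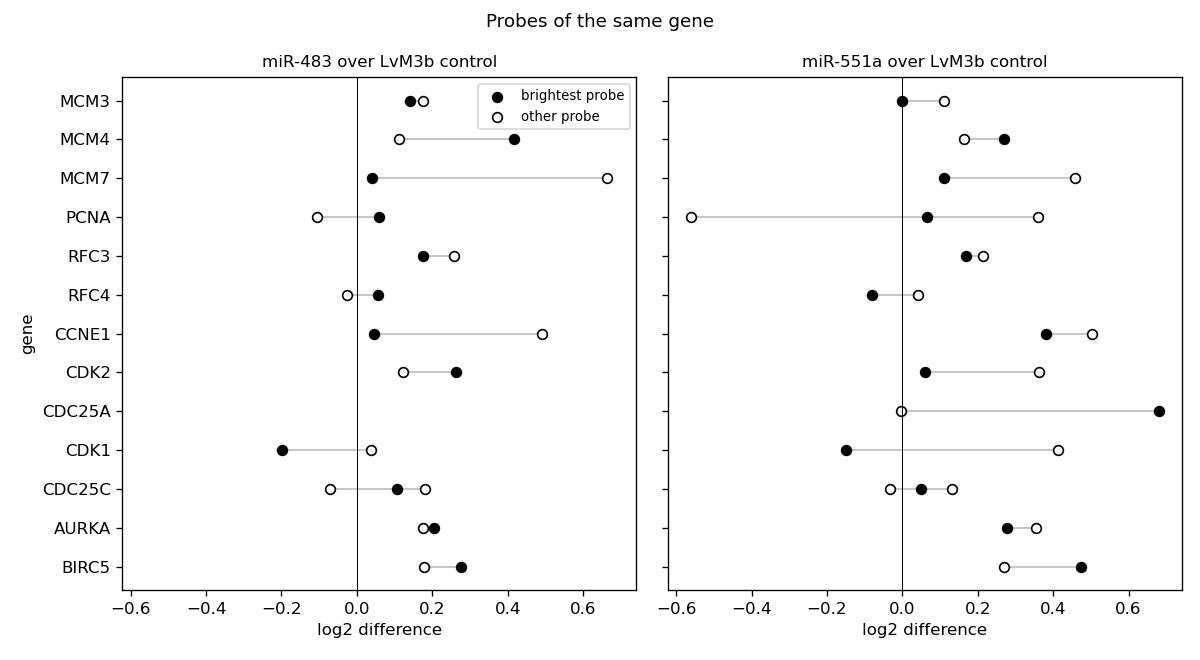
Log2 difference of each probe detected on both arrays, for genes with more than 1 such probe, with miR-483 and with miR-551a over the LvM3b control. Filled points are the brightest probe and open points the others; probes of CDK1 and PCNA fall on both sides of 0.

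Genes of the same pathways outside these 43 were listed by pathway. The shares of all genes at least 1.2-fold higher were 10.8% for miR-483 and 13.3% for miR-551a, and the shares lower were 10.5% and 12.4%. Of 42 other replication genes, 9 were at least 1.2-fold higher and 1 lower with miR-483 (median 0.09), and 12 and 1 with miR-551a (median 0.12). UHRF1, which keeps DNA methylation through replication, had levels of 11.71, 12.20, 12.29 and 11.73 and was 1.40-fold and 1.49-fold higher. TIPIN, a replication fork protector, was 1.29-fold and 1.59-fold higher, and MCM10, an initiation factor, was 1.49-fold higher with miR-551a. POLD4, a small subunit of polymerase delta, was 1.63-fold lower with miR-551a, at levels of 7.33, 7.07, 6.63 and 7.36. Only 1 probe reads it, and the lowest detected level on the miR-551a array was 6.19. Of the other mitosis genes, 4 of 39 were at least 1.2-fold higher and 0 lower with miR-483, and 7 of 38 and 0 with miR-551a. The shares higher were 21.4% and 28.6% for replication and 10.3% and 18.4% for mitosis, so the mitosis genes with miR-483 were near the share of all genes. Among them SGO1, the protector of centromeric cohesion, was 1.23-fold and 1.38-fold higher, and SMC4, a condensin subunit, 1.34-fold higher with miR-551a. Second probes, detected on all 4 arrays, were higher by less: 0.16 and 0.18 for SGO1, and 0.09 with miR-551a for SMC4.

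Among 28 inhibitors, checkpoint genes and transcription regulators the medians were 0.01 and -0.01. The numbers at least 1.2-fold higher and lower were 4 and 3 with miR-483, and 3 and 4 with miR-551a. Those higher were 14.3% and 10.7%, near the shares of all genes. CCND2, cyclin D2, was below control, 1.87-fold for miR-483 and 1.41-fold for miR-551a, at levels of 9.00, 8.10, 8.50 and 10.32, and a second probe differed by -0.45 and -0.38. Its highest level was on Ls-Parental. CDKN1B, the CDK inhibitor p27, had levels of 11.98, 11.64, 11.50 and 11.89 and was 1.27-fold and 1.40-fold lower at its brightest probe, but another probe differed by 0.06 and -0.09. CDKN2D, an inhibitor of CDK4 and CDK6, was 1.43-fold lower in both, at 7.28, 6.77, 6.76 and 8.14. Its levels on the miR-483 and miR-551a arrays were near the lowest detected there (6.15 and 6.19).

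Between the LvM3b control and Ls-Parental the 43 genes as a whole leaned neither way. Of 41 compared, 19 were higher in LvM3b and 22 lower, where 48.1% and 51.8% of 9817 genes were so, with a median of -0.03 beside -0.01 over all genes. At 1.2-fold, 7 were higher and 8 lower, against 20.6% and 23% of all genes, and 0 reached 2-fold, which 5.81% of all genes did. The split depended on scaling. With the authors' processed values, or with arrays scaled to a common median, 13 were higher and 4 lower, and the median of all genes was then 0.10 in both cases, against 0.14 and 0.15 for these genes. The shares of all genes past 1.2-fold are not given for these scalings, so the counts alone do not set these genes apart. Values that follow are from the quantile-normalized levels. With the authors' processed values CDC20, CCND1 and CDK4 differed by -0.32, -0.28 and -0.16, in place of -0.51, -0.49 and -0.35.

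The role groups differed in sign in the quantile-normalized levels. Group medians were not recomputed with the other scalings, which raised the differences from Ls-Parental, so the signs of the groups could depend on scaling. The licensing and helicase group had a median of 0.12, or 0.075 without GINS1, which entered through its level on the control array alone. The polymerase group had 0.12, while the group of S to mitosis cyclins, CDK1 and CDC25 had -0.22, with 6 of 7 lower in LvM3b. Lowest were CDC25B, which triggers mitotic entry, 1.58-fold lower in LvM3b at levels of 12.05, 12.11, 12.15 and 12.71, and RRM2, 1.51-fold lower. CDC20 was 1.43-fold lower, CCND1, cyclin D1, 1.40-fold lower at 13.30, 13.21, 13.26 and 13.79, and its partner CDK4 1.28-fold lower at 12.47, 12.50, 12.39 and 12.82. For CDC25B, CCND1 and CDK4 the LvM3b arrays lay within 0.11 of each other and Ls-Parental lay above by 0.56, 0.49 and 0.33. CDC20 was different, since the microRNA arrays differed from Ls-Parental by only -0.11 and 0.03. CDC6 and POLE2 were both 1.37-fold higher in LvM3b, BUB1 1.27-fold at 11.21, 11.21, 11.24 and 10.87, CDK6 1.24-fold, and TTK, a spindle checkpoint kinase, 1.23-fold at 10.63, 10.69, 10.67 and 10.32. CDK4 and CDK6, which share the D cyclins, thus differed in opposite directions between the lines.

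With all 3 LvM3b arrays in view, Ls-Parental lay above them for 12 of 41 genes (29.3%) and below them for 17 (41.5%), where 35.9% and 35.5% of 10095 genes did so. The 17 include GINS1, which was detected on the control array only, and the number was 27 with the authors' processed values. The share of all genes with Ls-Parental lowest is not given for those values, so the 27 cannot be set beside it. Ls-Parental was lowest for 6 of 10 licensing and helicase genes and 4 of 5 polymerase, clamp and loader genes. It was highest for 4 of 7 and lowest for 0 of 7 of the S to mitosis cyclins, CDK1 and CDC25. These counts by role are from quantile-normalized levels and were not recomputed with the authors' processed values. The gap was small for many: Ls-Parental lay within 0.1 of the nearest LvM3b array for PCNA, MCM5, RFC3, RFC4, TYMS, CCND3, CCNB1, GINS1, GINS2 and BIRC5. Markers of other cell types differed between the lines too. Of 6 fibroblast markers 2, LUM and COL3A1, were detected on each LvM3b array and 0 on Ls-Parental, with summed deposited signals of 982.3 to 1084.8 against 722.9. Of 5 immune markers 1 was detected on each LvM3b array and 2 on Ls-Parental (summed signals 830.2 to 882.3 against 1145.2), and PTPRC, CD3E and HLA-DRA on none. Of 5 hepatocyte markers 1 and 2 were detected (620.1 to 701.6 against 971.2), and ALB, APOA1 and TTR on none. Of 4 endothelial markers, PECAM1 alone was detected, on the miR-483 array only (summed signals 403.2 to 463.8 over the LvM3b arrays against 422.9). Their part in these differences was not tested.

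Other pathway genes showed mixed signs in this comparison, in which 20.6% of all genes were at least 1.2-fold higher and 23% lower. Of the other replication genes 3 of 42 were at least 1.2-fold higher in LvM3b and 7 lower, with WDHD1, a replisome scaffold, 1.41-fold higher, and RFC2, a clamp loader subunit, 1.36-fold lower. Dimmer probes of WDHD1, each detected on 2 arrays, differed by 0.48 and -0.62. Of 38 other mitosis genes 4 were higher and 6 lower. SPC24 of the kinetochore and ECT2, which drives cytokinesis, were each 1.67-fold higher, and CCNF, cyclin F, was 1.42-fold lower. SPC24 was read from 1 probe, and its level on Ls-Parental, 6.55, was near the lowest detected there (6.13). Of 28 regulators 1 was higher and 7 (25%) lower. The shares higher were under that of all genes in all 3 lists, and the shares lower were near or under it. CCND2 was 2.51-fold lower in LvM3b, and a second probe differed by -1.47. CDKN2D was 1.82-fold lower and E2F8, a repressor of the E2F family, 1.72-fold lower.

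The genes that were detected on all 4 arrays and had a matched promoter were also grouped by their promoter letters. The 12 with E2F and no CHR letters had medians of 0.14 with miR-483, 0.25 with miR-551a and 0.02 for LvM3b over Ls-Parental. The 8 with CHR and no E2F letters had medians of 0.02, 0.08 and -0.14. The 11 with neither had medians of 0.07, 0.13 and -0.20, and the 2 with both had -0.05, 0.02 and 0.15. These are descriptions of small groups with no test, and the medians of genes with CHR and no E2F letters and of those with neither lay close together.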

How the data were processed

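Messenger RNA was read on 4 Illumina bead arrays. Per the file headers, the deposited table without normalization gives a signal and a Detection value per array. Signals are probe intensities on a linear scale, deposited with array medians of 103.6 to 115.4. Detection is a deposited score that rises with brightness towards 1, so the detection p was taken as 1 minus that score. A second deposited table of processed intensity values is, as the values show, the same signal times 1 factor per array (1.00, 1.03, 1.11 and 1.09 in the order of arrays used above). The software that made them is not given in the sources.

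Background was corrected by normexp with the detection p (offset 16), then the 4 arrays were quantile normalized and taken to log2, all with neqc of limma 3.58.1 (R 4.3.3). The difference step was tested on simulated data with known folds, all wider than 1.2-fold and set in bright probes. Smaller differences and dim probes were not covered by it. Gene names came from the platform annotation, brought up to date by gene number with RefSeq (GRCh38.p14): of the probes, 27578 carried 1 gene, 13 several and 21212 none. A gene entered a comparison if detected on at least 1 of its arrays. Every one of the 43 genes is named; levels on each array are given for the 5 furthest in each direction per comparison and for those past 1.2-fold with a microRNA, and up to 3 genes per direction are drawn on for other lists. The genes, lists and thresholds were chosen with earlier results of these data known. Of the listed other genes, 3 had no probe named here. With 1 array per group no test, interval or leave-one-out was possible, and the files hold no bead counts, so the number of arrays limits the precision. Alternatives changed the background correction, its offset, the normalization, the source table, the detection filter or threshold, and the probe rule.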

Additional observations from a re-analysis of the deposited data

How the results depend on the processing

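The lean of the genes towards higher levels on the microRNA arrays kept its sign under all 8 alternatives, with medians that moved by less than 0.05 (log2), a limit set by hand because there were no replicates. Of the values of single genes past 1.2-fold, recomputed under these alternatives, 304 lay within 0.1 of the reported value, 45 moved further and 0 changed sign. Many of the 304 could not move. The alternatives of detection filter or threshold changed only which genes entered, and the probe rule cannot change a gene with 1 probe. The 304 are therefore no measure of stability. With miR-483 over control, genes at least 1.2-fold higher numbered 8, or 4 without background correction. Those lower numbered 1, or 0 without background correction and 0 when every array compared had to detect the gene, and 2 with the mean of detected probes. With miR-551a over control, those lower numbered 1, or 0 with detection required on both arrays and 2 with no detection filter. For miR-483 over miR-551a, median scaling turned the median from -0.06 to 0.037. It raised the median of all genes as well, and these genes stayed below that median. Genes lower there numbered 3, or 1 with median scaling and 1 with the authors' processed values. Genes higher there numbered 0, or 1 with median scaling, 2 with no detection filter and 1 at a detection p under 0.05. For LvM3b control over Ls-Parental the median of -0.03 turned to 0.15 with median scaling and 0.14 with the authors' processed values. Under each of these 2 settings, genes lower numbered 4 in place of 8, genes higher 13 in place of 7, and genes with Ls-Parental lowest 27 in place of 17. Both settings moved the median of all genes by about 0.1, and the cause was not tested. Shares of all genes are given for the reported settings only. The counts under the alternatives in this section therefore show how the counts moved, and are not a result about these genes. Genes near background (GINS1, CDC6, dim second probes) are limited by signal. No paired analysis was possible because each group has 1 array.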
